A study of Anas platyrhynchos with 6 samples.

Results

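The miR-30 family was described across the duodenal small RNA of juvenile laying ducks under traditional breeding or cage rearing. Its members were all names that read miR-30, with or without a letter from a to f, once the species prefix was dropped (hsa for human, ssa for salmon and so on), in either arm and any copy. The rule found 42 of the 1568 names in each table, under 21 species prefixes and with 0 names under the duck prefix. Of these, 41 had at least 1 read, in 36 distinct sets of reads over the libraries, and 30 names in 26 sets passed the filter of at least 10 reads in at least 3 libraries. The other 11 detected names held between 1 and 58 reads in all, and ami-miR-30c-3p was listed at 0 throughout.

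The ducks were of the Nonghu No. 2 breed and were selected at 90 days of age, reared on the floor beforehand, and then divided between traditional breeding (TB) and cage rearing (CR) for 10 days. Each group comprised 4 replicates of 8 ducks, and 3 libraries per group were analysed here. The sources used here do not tie a library to a replicate or to a single duck, so p-values measure the spread between libraries, which may be technical. A piece of duodenum was collected, although the labels name intestinal epithelial cells. Values are RPM, the reads of a name per 1000000 reads over all names of its library, without a length correction. Each library held 1500905 (CR replicate 2) to 11395209 (CR replicate 1) reads summed over all names. Intervals and limits from reads cover counting error only.

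MicroRNAs are cut from hairpin precursors, and each hairpin can release a strand from its 5p arm and a strand from its 3p arm. The 5p strands of miR-30a to miR-30e share their seed, the stretch near the 5′ end that pairs with target transcripts, so they are predicted to recognise largely the same targets, whereas their 3p strands carry other seeds. In mammals and birds miR-30b lies beside miR-30d, miR-30a near the copy miR-30c-2, and miR-30e near the copy miR-30c-1, and both miR-30c copies give the same 5p strand. In mammals the family is known from epithelial differentiation, where it represses the transcription factor SNAI1, and miR-30a represses the autophagy gene BECN1.

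TB replicate 1 and CR replicate 2, which lie in different groups, stood apart from the other 4 libraries. Across the 662 names that passed the filter, the correlation of log2(RPM + 1) was 0.968 between these libraries, 0.982 to 0.992 among the other 4 and 0.737 to 0.818 between the sets, as a description across miRNAs. TB replicate 1 and CR replicate 2 both lay above the other 4 libraries in 57.3% of the 662 names and both below in 21.8%. The TMM factors of edgeR, which divide RPM to scale libraries to each other, were 1.70 in TB replicate 1 and 2.97 in CR replicate 2. In the other 4 libraries they were 0.531 to 0.772. Levels are RPM without this scaling unless stated. Ranges and orders between libraries depend on that choice, while ratios within a library do not. TB replicate 1 and CR replicate 2 were recognised from the data, so they form no group of the study and are given beside each result by name. The 8 listed miRNAs of the intestinal epithelium, all found, did not move together in these libraries. Both libraries lay below the other 4 in 3 of them (miR-192, miR-194 and miR-215), above in 3 (miR-200b, miR-200c and miR-429) and neither in 2 (miR-200a and miR-141). For example hsa-miR-215-5p was at 11200 RPM in TB replicate 1 and 12535 RPM in CR replicate 2 while the others held 91467 to 143915 RPM, whereas dre-miR-200c-3p was at 1914 and 2217 RPM beside 132 to 313 RPM. Their sum, 49794 and 38722 RPM beside 126932 to 186730 RPM, is carried mostly by miR-215 and miR-194. In the smooth muscle list ola-miR-143 was at 117332 and 90227 RPM beside 150207 to 197456 RPM, and mmu-miR-145a-5p ran the other way at 1490 and 941 RPM beside 559 to 867 RPM. By group, the epithelial sum ran from 49794 to 186730 RPM in TB and from 38722 to 137934 RPM in CR. In such bulk samples fewer cells of a type and less RNA per cell cannot be told apart, and the part of these markers in the values below was not tested.

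Many miR-30 names carried nearly the same reads. The names hsa-miR-30c-5p, oar-miR-30c and dre-miR-30c-5p differed by at most 0.0734% in any library, and hsa-miR-30d-5p and oar-miR-30d by at most 0.0295%. For miR-30a-5p, hsa and cpi differed by at most 0.0355%. The 3 names mmu-miR-30e-5p, sha-miR-30e and gga-miR-30e-5p differed by at most 2.17%. Such names are not separate evidence, and the name with the highest mean stands for each letter and arm below. Counts of names or of distinct sets of reads still hold each of them.

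Of the 5p strands, miR-30d, miR-30a, miR-30c and miR-30e were all abundant, while miR-30b stayed low. The level of hsa-miR-30d-5p was 21412, 3823 and 3380 RPM in the TB libraries, from replicate 1 to 3, and 5052, 20491 and 2884 RPM in the CR libraries. The 2 high libraries were TB replicate 1 and CR replicate 2, and the groups overlapped. The same libraries were highest for hsa-miR-30c-5p, which had 13630, 699 and 656 RPM under TB and 598, 10901 and 340.1 RPM under CR, a range of 40.1-fold against 7.42-fold for hsa-miR-30d-5p. The order was the opposite for hsa-miR-30a-5p, the strand of the BECN1 regulator, with 2961, 6433 and 5569 RPM under TB and 5395, 1688 and 5238 RPM under CR. Here TB replicate 1 and CR replicate 2 were the lowest libraries of their groups.

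**Figure D1:**
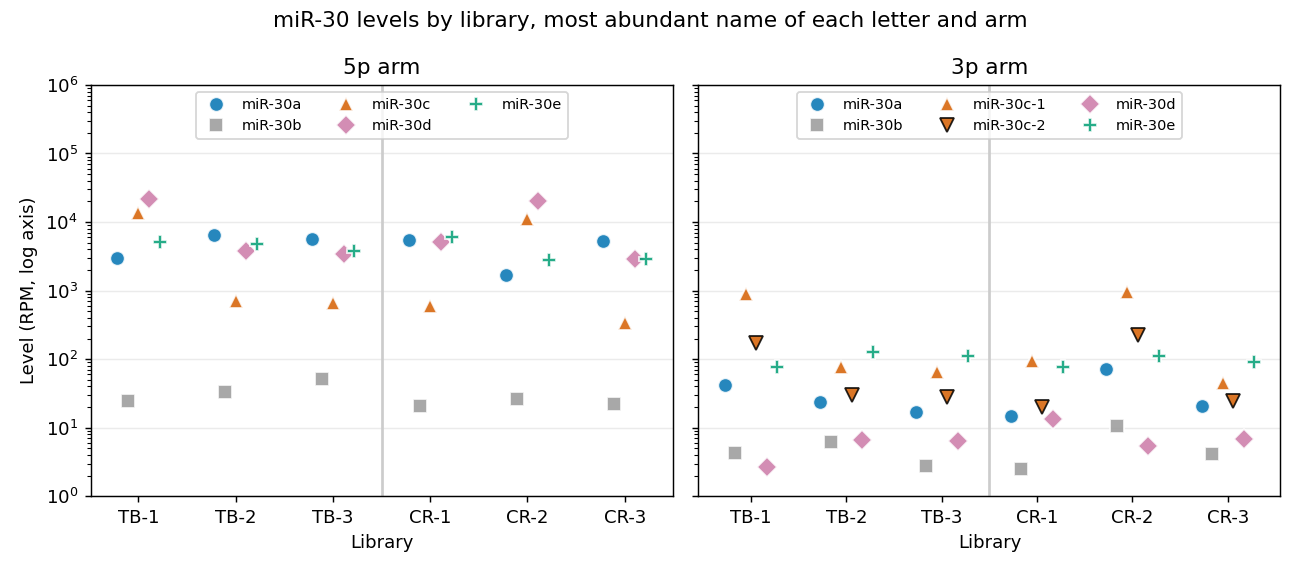
Level of the most abundant name of each letter and arm in RPM on a log axis, for each of the 6 libraries, 5p strands on the left and 3p strands on the right. Points are single libraries. miR-30c-5p, miR-30d-5p and both miR-30c 3p strands are highest in TB-1 and CR-2, while miR-30d-3p is lowest there.

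On plain RPM the strand mmu-miR-30e-5p varied least among the abundant 5p strands, over 2.16-fold, with 5030, 4809 and 3756 RPM under TB and 5961, 2758 and 2936 RPM under CR. Its lowest RPM was that of CR replicate 2, whereas TB replicate 1 lay within the range of the other libraries. This depends on the scaling between libraries. Divided by the TMM factors, hsa-miR-30d-5p and not mmu-miR-30e-5p varied least. The neighbour of miR-30d in the genome, miR-30b, was far less abundant, as mml-miR-30b-5p had 24.2, 33.2 and 51.0 RPM under TB and 20.8, 26.7 and 22.0 RPM under CR. These values rest on 1405 reads, of which 40 came from CR replicate 2. Finally mmu-miR-30f, for which the name gives no arm, had 11.4, 43.6 and 37.5 RPM under TB and 19.3, 14.0 and 30.1 RPM under CR, lowest again in TB replicate 1 and CR replicate 2.

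The mean of hsa-miR-30d-5p was 9538 ± 10285 RPM (SD, n = 3) under TB and 9476 ± 9601 RPM under CR. For hsa-miR-30c-5p the means were 4995 ± 7478 RPM and 3946 ± 6025 RPM, for hsa-miR-30a-5p 4988 ± 1808 RPM and 4107 ± 2097 RPM, and for mmu-miR-30e-5p 4532 ± 681 RPM and 3885 ± 1800 RPM. The SD of the miR-30c and miR-30d strands exceeded their means, so the order of the 4 abundant strands by mean did not hold beyond the spread between libraries. Only mml-miR-30b-5p, at 36.1 ± 13.7 RPM and 23.2 ± 3.09 RPM, lay below the other 4 in every library.

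The order of the strands differed between libraries. In TB replicates 2 and 3 and CR replicate 3 the 5p strands ran from miR-30a through miR-30e, miR-30d and miR-30c to miR-30b, and in CR replicate 1 miR-30e exceeded miR-30a. In TB replicate 1 and CR replicate 2 the order was miR-30d, miR-30c, miR-30e, miR-30a and miR-30b. Together miR-30c-5p and miR-30d-5p held 81.4%, 28.6% and 30.1% of the summed level of the 5 strands in TB and 33.2%, 87.5% and 28.2% in CR. The share of miR-30a-5p alone was 6.88%, 40.7% and 41.5% under TB and 31.7%, 4.71% and 45.9% under CR. Counting error was small beside these differences. The 95% Wilson interval of the miR-30a share was 4.53% to 4.89% in CR replicate 2, the shallowest library, and 45.6% to 46.2% in CR replicate 3.

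**Figure D2:**
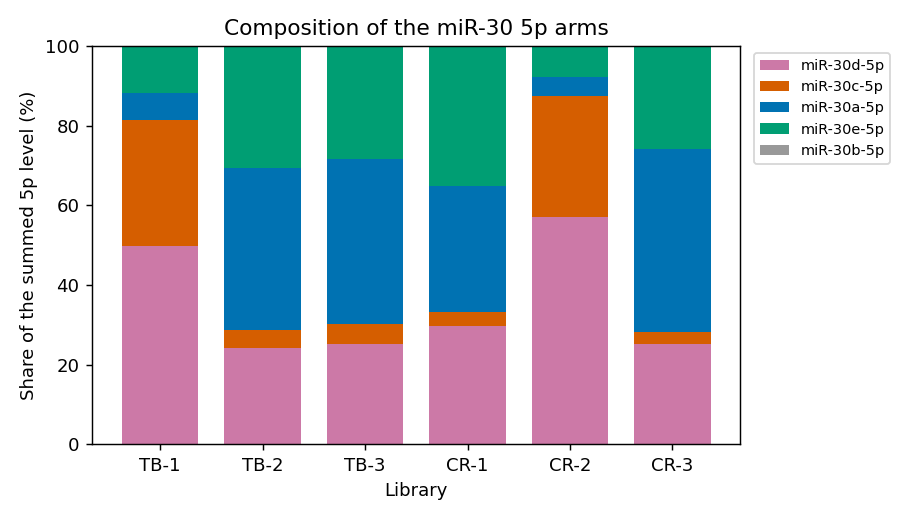
Share of miR-30a-5p, miR-30b-5p, miR-30c-5p, miR-30d-5p and miR-30e-5p in their summed level, in percent, for each library, with 1 name for each strand. The strands of miR-30c and miR-30d fill 81.4% of TB-1 and 87.5% of CR-2 but 28.2% to 33.2% of the other 4 libraries, and miR-30b-5p is too rare to be seen.

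The summed level of the 5 strands was 43057, 15798 and 13412 RPM under TB and 17027, 35864 and 11420 RPM under CR. That is between 1.14% and 4.31% of the values summed over all names of a library. Nearly identical names each enter that total, while each strand enters the 5-strand sum once, so this is no share of the sequenced reads. The TMM factors were also highest in TB replicate 1 and CR replicate 2, so the order of these sums between libraries depends on the scaling. A sum over all 36 distinct sets of reads counts the abundant 5p strands of miR-30a, miR-30c, miR-30d and miR-30e more than once. It ranged from 26417 RPM in CR replicate 3 to 106131 RPM in TB replicate 1. The log2 ratio of the CR to the TB mean of that sum was -0.18, and it changed sign when a single library was left out, being -0.80 when CR replicate 2 was omitted and 0.58 when TB replicate 1 was. Without both libraries it was -0.04, and with TMM-scaled RPM in all libraries it was -0.29.

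The 3p strands were less abundant than the 5p strand of the same letter in every library. The highest was gga-miR-30c-1-3p, from the copy beside miR-30e, with 893, 76.7 and 65.7 RPM under TB and 94.95, 938 and 44.7 RPM under CR. The strand from the copy beside miR-30a, hsa-miR-30c-2-3p, had 169.7, 30.0 and 27.8 RPM under TB and 20.2, 229 and 24.6 RPM under CR. Both copies were thus highest in TB replicate 1 and CR replicate 2, like the miR-30c 5p strand. The first copy exceeded the second 5.26, 2.56 and 2.36 times in TB and 4.70, 4.10 and 1.82 times in CR.

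Other 3p strands did not share the order of their 5p strand. The level of hsa-miR-30a-3p was 42.0, 24.1 and 16.8 RPM under TB and 15.0, 71.3 and 20.4 RPM under CR, so on plain RPM it was highest in the libraries in which miR-30a-5p was lowest. Divided by the TMM factors (1.70 in TB replicate 1, 2.97 in CR replicate 2), hsa-miR-30a-3p was no longer highest there. On plain RPM the reverse held for hsa-miR-30d-3p, with 2.63, 6.53 and 6.43 RPM under TB and 13.5, 5.33 and 6.90 RPM under CR, which was lowest in the libraries in which miR-30d-5p was highest. It rests on 365 reads, 15 of them in TB replicate 1 and 8 in CR replicate 2. In gga-miR-30e-3p the libraries differed little on plain RPM, at 76.5, 126.3 and 110.7 RPM under TB and 76.9, 109 and 90.2 RPM under CR. The strand tgu-miR-30b-3p had 4.20, 6.21 and 2.77 RPM under TB and 2.46, 10.7 and 4.10 RPM under CR, from 192 reads.

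The ratio of both arms was then taken within each library, where depth and the scaling to 1000000 cancel. For miR-30d the 3p strand had 0.0123%, 0.171% and 0.190% of the reads of the 5p strand in TB and 0.268%, 0.0260% and 0.239% in CR, a range of 21.8-fold that was lowest in TB replicate 1 and CR replicate 2. For miR-30a it had 1.42%, 0.374% and 0.301% under TB and 0.278%, 4.22% and 0.390% under CR, a range of 15.2-fold that was highest in these libraries. The ratio of miR-30c varied over 2.42-fold only, between 6.55% in TB replicate 1 and 15.9% in CR replicate 1. For this letter gga-miR-30c-1-3p alone, from a single copy, was set over a 5p strand that both copies give. That of miR-30e varied over 3.07-fold, from 1.29% in CR replicate 1 to 3.96% in CR replicate 2, and that of miR-30b over 7.36-fold, from 5.43% in TB replicate 3 to 40.0% in CR replicate 2, the latter from 16 and 40 reads.

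**Figure D3:**
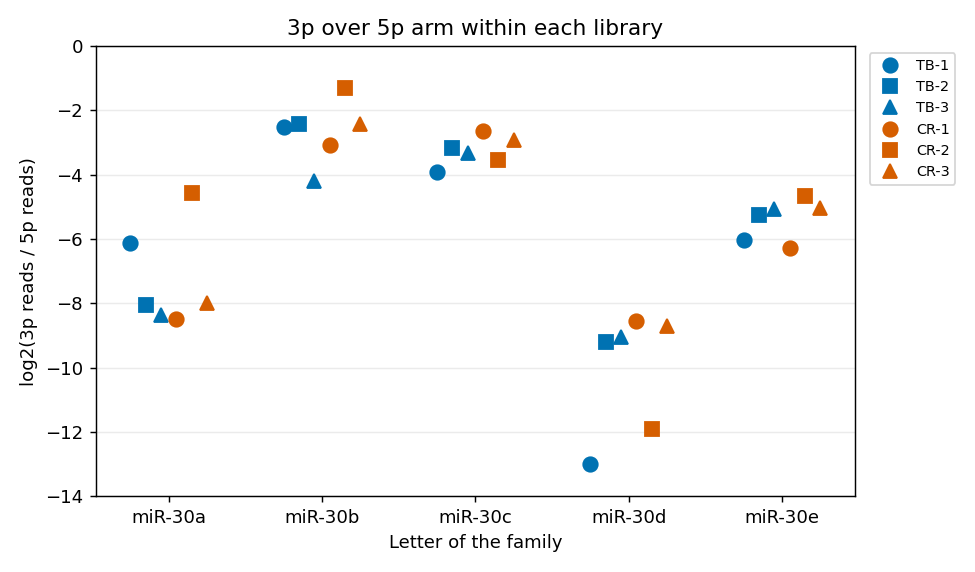
Log2 ratio of 3p to 5p reads within each library, for the 5 letters with both arms measured. For miR-30c the 3p strand is gga-miR-30c-1-3p alone. Colour gives the group and the symbol the replicate. miR-30d spans -12.99 to -8.55 with TB-1 and CR-2 at the bottom, while in miR-30a TB-1 and CR-2 are at the top.

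Between the groups no arm ratio differed beyond the spread between libraries. The log2 ratio of miR-30c was -3.48 ± 0.40 (SD, n = 3) under TB and -3.04 ± 0.45 under CR, a difference of 0.44 (p = 0.3 by a two-sided exact permutation test, whose smallest possible p with 3 against 3 libraries is 0.1). The differences were 0.51 for miR-30a (exact permutation p = 0.8), 0.77 for miR-30b (p = 0.5), 0.69 for miR-30d (p = 0.5) and 0.14 for miR-30e (p = 0.8). Over these 5 comparisons every adjusted p was 0.8 (Benjamini-Hochberg), and the groups overlapped in each. Without TB replicate 1 and CR replicate 2 the difference was -0.03 for miR-30a and -0.48 for miR-30e, and thus opposite in sign.

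Cage rearing was compared with traditional breeding by limma on log2(RPM + 1) over all 662 names, where 0 names (0% of those tested) had an unadjusted p under 0.05 and 0 an adjusted p under 0.05. edgeR and DESeq2 each gave only 5 of these 662 names, all higher in CR, at an unadjusted p under 0.05 and 0 after adjustment. The family accordingly had 0 of its 30 names past either threshold, and edgeR and DESeq2 on the reads likewise called 0 of them at an unadjusted p under 0.05, where DESeq2 gave no p for the 3 abundant miR-30c-5p names. Of the 26 distinct sets of reads 10 had a positive log2 fold change and 16 a negative one, with a median of -0.15 beside 0.05 over all tested names. Nearly identical names enter these counts separately. Those of miR-30a-5p and miR-30e-5p and the abundant ones of miR-30c-5p were all negative, and the abundant ones of miR-30d-5p positive. The counts and medians are therefore not over independent members. After TMM scaling the medians were -0.31 and -0.11. For hsa-miR-30c-5p the log2 fold change was -0.50 with a standard error of 1.74, and for hsa-miR-30d-5p 0.04 with a standard error of 1.02 (limma adjusted p = 0.999 for both). The sign of hsa-miR-30d-5p changed with TMM scaling, to -0.15, and that of hsa-miR-30c-5p when TB replicate 1 (0.95), CR replicate 1 (0.06) or CR replicate 3 (0.47) was left out. The log2 fold change was -0.38 for hsa-miR-30a-5p (standard error 0.63), -0.30 for mmu-miR-30e-5p (0.46), -0.56 for mml-miR-30b-5p (0.62), 0.61 for hsa-miR-30d-3p (0.64) and -0.06 for gga-miR-30c-1-3p (1.51). Each was smaller than its standard error.

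Once TB replicate 1 and CR replicate 2 were left out, limma on the other 4 libraries gave 3 higher (0.453%) and 21 lower (3.17%) of the 662 names in CR at an unadjusted p under 0.05. Of the 30 tested miR-30 names 1 was higher and 2 were lower. The lower ones were mml-miR-30b-5p and mmu-miR-30b-5p, which hold the same reads, with a log2 fold change of -0.91 (unadjusted p = 0.030, adjusted p = 0.975 from limma). The higher one was ssa-miR-30d-5p with 1.002 (unadjusted p = 0.011, adjusted p = 0.823 from limma). Across all fits the adjusted p ran from 0.875 to 0.9998 for mml-miR-30b-5p and from 0.823 to 0.9998 for ssa-miR-30d-5p. In hsa-miR-30c-5p the 4 libraries gave -0.59 (adjusted p = 0.997 from limma), with 699 and 656 RPM in TB against 598 and 340.1 RPM in CR.

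On plain RPM every CR library lay above every TB library in 2 of the 30 tested miR-30 names (6.67%), beside 4 of all 662 names (0.604%), and every CR library lay below in 0 of the 30, beside 1.66% of all names. The 2 names were ssa-miR-30d-5p and pma-miR-30c-5p, names of salmon and lamprey with few reads. Divided by the TMM factors (2.97 in CR replicate 2, 0.760 in TB replicate 2), CR replicate 2 lay below TB replicate 2 for both names. The groups then overlapped. Both were among the names singled out with earlier results of these libraries known, so their direction is not independent evidence. The level of ssa-miR-30d-5p was 2.63, 3.43 and 2.88 RPM under TB and 6.58, 10.7 and 8.10 RPM under CR, from 15, 32 and 26 reads against 75, 16 and 81 reads. The lowest CR library had a 95% Wilson interval of 5.25 to 8.25 RPM and the highest TB library of 2.43 to 4.84 RPM, which do not overlap. Its log2 fold change of 1.23 had a standard error of 0.51 (unadjusted p = 0.05001, the smallest of all 662 names, adjusted p = 0.999 from limma). With a pseudocount of 10 RPM in place of 1 its unadjusted p was 0.027 by limma at a log2 fold change of 0.50. The name was then the only one past 0.05 (0.151% of 662). Other fits on all 6 libraries gave a higher unadjusted p than the main fit, such as 0.134 with edgeR and 0.079 with DESeq2. With limma it was 0.058 at a pseudocount of 0.1, 0.161 after TMM scaling and 0.164 without the filter. With the replicate number as a block limma gave 0.175, and leaving out a single library gave 0.080 to 0.148.

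For pma-miR-30c-5p the level was 2.45, 2.89 and 3.33 RPM under TB and 3.42, 5.33 and 4.20 RPM under CR, from 14, 27 and 30 reads against 39, 8 and 42 reads. The gap between the groups, from 3.33 RPM in TB replicate 3 to 3.42 RPM in CR replicate 1, was well inside the 95% Wilson intervals of these libraries, 2.33 to 4.75 RPM and 2.50 to 4.68 RPM. Its log2 fold change of 0.44 had a standard error of 0.47 (limma adjusted p = 0.999). The two-sided exact permutation test gave p = 0.1 for either name, the smallest that 3 against 3 libraries allow.

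**Figure D4:**
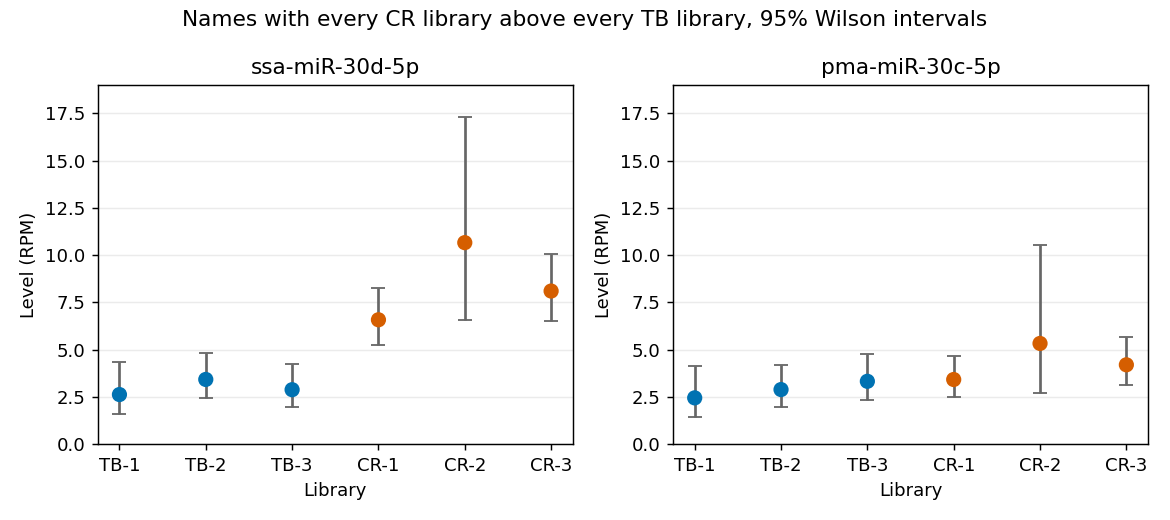
Level in RPM of ssa-miR-30d-5p (left) and pma-miR-30c-5p (right) in each library, TB in blue and CR in orange, with 95% Wilson intervals that cover counting error only. For ssa-miR-30d-5p the CR libraries sit at 6.58 to 10.7 RPM and the TB libraries at 2.63 to 3.43 RPM, while the intervals of pma-miR-30c-5p overlap between the groups.

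These rare names were no fixed fraction of the abundant name of the same strand. For 10000 reads of hsa-miR-30d-5p there were 1.23, 8.96 and 8.53 reads of ssa-miR-30d-5p in TB and 13.0, 5.20 and 28.1 in CR. The ratio was lowest in TB replicate 1 and CR replicate 2, and on this scale the groups overlapped. For 10000 reads of hsa-miR-30c-5p there were 1.80, 41.4 and 50.7 reads of pma-miR-30c-5p in TB and 57.2, 4.89 and 123.5 in CR. The files give no sequence for a name, so how the reads of a rare name differ from those of the abundant name was not analysed here.

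Among the 30 tested miR-30 names, 13 (43.3%) had TB replicate 1 and CR replicate 2 both above the other 4 libraries, 6 (20.0%) both below and 11 neither, beside 57.3% and 21.8% of all tested names. The names above were those of miR-30c and miR-30d other than the 3p strand of miR-30d and the rare 5p names ssa-miR-30d-5p and pma-miR-30c-5p, together with the names of miR-30a-3p and pma-miR-30b. The last had 10.2, 2.68 and 2.11 RPM under TB and 2.98, 19.3 and 2.20 RPM under CR, unlike mml-miR-30b-5p. The names below were those of miR-30a-5p, miR-30d-3p and mmu-miR-30f.

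Outside the family, profiles were ranked by the root mean square difference of log2(RPM + 1), each centred on its own mean over the 6 libraries, among 169 distinct sets of reads with a mean of at least 100 RPM. Nearest to hsa-miR-30c-5p were gga-miR-31-5p (0.25), cel-miR-72-5p and cte-miR-31 (0.30 each, with nearly the same reads), and cfa-miR-181b and pbv-miR-181b-5p (0.37 each). The level of gga-miR-31-5p was 394 and 323 RPM in TB replicate 1 and CR replicate 2 and 9.40 to 25.4 RPM elsewhere. Nearest to hsa-miR-30d-5p were efu-miR-27b and mmu-miR-27b-3p (0.15 each), bfl-let-7b (0.16), cel-let-7-5p (0.18) and cpi-miR-363-3p (0.18). Within the family the distance was 0.97 between hsa-miR-30c-5p and hsa-miR-30d-5p, 0.62 between hsa-miR-30a-5p and mmu-miR-30e-5p, and 2.75 between hsa-miR-30c-5p and hsa-miR-30a-5p. The nearest outside names thus lay closer to hsa-miR-30c-5p and to hsa-miR-30d-5p than these strands lay to each other, over 6 libraries. That sets the smallest of 169 distances against a single one, so it is no measure of divergence within the family.

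The list of epithelial miRNAs set beside the family was miR-192, miR-194, miR-215, miR-141, miR-429 and miR-200a to miR-200c. By limma 0 of its 31 tested names passed an unadjusted p of 0.05, beside 0 of all 662 names. Of its log2 fold changes 11 were above 0 and 20 below, with a median of -0.08 beside 0.05 over all tested names. These 31 names stand for 8 miRNAs and some hold nearly the same reads, so the counts are not over independent members.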

How the data were processed

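Small RNA libraries were prepared with the TruSeq small RNA kit and sequenced on an Illumina HiSeq platform. The authors deposited 1 table per library under a header that reads tpm, while the methods name FPKM. Each column sums to 1000000 and all values (100%, within 0.1 of a read) are whole multiples of 1 read, so the deposited values are RPM. The aligner, build and read filter are not given in the sources used here. Reads were recovered from the size of that step (0.0878 RPM in CR replicate 1 to 0.666 RPM in CR replicate 2), and a count of 0 allows up to 3 reads.

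Groups were compared on the 662 names that had 10 or more reads in 3 or more libraries, with limma 3.58.1 (trend, two-sided) on log2(RPM + 1) and Benjamini-Hochberg adjustment over all of them. A fold change on this scale understates the change of low names. edgeR 4.0.16 and DESeq2 1.42.0 on the recovered reads, other pseudocounts and filters, TMM scaling, a replicate block and left-out libraries were alternatives. Single values were compared with exact permutation tests (scipy 1.17.1). The scripts were tested on simulated data in which no library stood apart, so that test does not speak to their power in these data. Named were the listed members, the most abundant name of each letter and arm, further sets of reads past the filter, and the 5 nearest outside profiles. Members and lists were chosen with earlier results of these data known. Marker lists of other cell types were matched by name without the prefix, with the most abundant name standing for each miRNA. Beside those described with the results, the summed level in TB replicate 1, CR replicate 2 and the range of the other 4 libraries was 1207, 1111 and 3260 to 4783 RPM for striated muscle, 56.6, 137 and 244 to 331 RPM for leukocytes, 24.2, 46.6 and 21.2 to 55.5 RPM for erythroid cells, 469, 639 and 736 to 1467 RPM for endothelium, 7.36, 328 and 1.55 to 5.10 RPM for liver, 53.6, 26.0 and 1.11 to 4.83 RPM for exocrine pancreas, 45.2, 87.9 and 50.9 to 112 RPM for neurons, and 4579, 7599 and 1445 to 2718 RPM for enteroendocrine cells. Members of a list could run opposite ways. In the same order, mmu-miR-1b-5p had 269, 254 and 3180 to 4662 RPM but ppy-miR-133a 907, 822 and 64.6 to 214 RPM and mmu-miR-206-3p 10.3, 25.3 and 0 to 0.500 RPM. The name mmu-miR-1b-5p was the most abundant of 24 names matched to miR-1 in any arm, and the 3p names of miR-1 were not examined separately. Likewise gga-miR-142-5p had 31.9, 87.9 and 237 to 321 RPM but ssc-miR-155-5p 24.7, 49.3 and 6.90 to 9.98 RPM, and bfl-miR-375 had 3716, 7310 and 233 to 338 RPM but gga-miR-7 862, 289 and 1212 to 2428 RPM. The most abundant names of the leukocyte marker miR-223 and the erythroid marker miR-486 (rno-miR-223-3p and mmu-miR-486b-3p) were at 0 in every library but CR replicate 3, and miR-150 was not matched.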

Additional observations from a re-analysis of the deposited data

How the results depend on the processing

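Of the 26 distinct sets of miR-30 reads, 10 kept the sign of their log2 fold change in every fit run and 16 changed it when a single library was left out. Of these 16, 6 also changed it under another alternative. The number of these 26 sets with an unadjusted p under 0.05 was 0, but 1 with a pseudocount of 10 RPM and 2 without both TB replicate 1 and CR replicate 2. After adjustment 0 sets passed 0.05 in any fit. Over all 662 names, counted by name and not by set, the unadjusted count was 0, but 5 with edgeR and 5 with DESeq2. It was 1 with a pseudocount of 10 RPM (0.151%) and 24 without both libraries (0.453% higher and 3.17% lower). Without the filter on low reads, where more names are tested, it was 4. With the replicate number as a block (replicate block) the counts were 0 and 0, and no call of a miR-30 name changed. Deviations from the group means correlated at -0.80, -0.91 and 0.91 between libraries numbered 1, 2 and 3. The value was 0.93 between TB replicate 1 and CR replicate 2, which stood apart from the rest and bear different numbers. Whether equal numbers mark a pairing cannot be told from these values.

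Several log2 fold changes reversed. With edgeR they were -0.28 for hsa-miR-30d-5p and oar-miR-30d, -0.015 for hsa-miR-30a-3p and -0.049 for tgu-miR-30b-3p. With DESeq2 hsa-miR-30d-5p and oar-miR-30d had -0.20. With TMM-scaled RPM the values were -0.15 for both of these names, -0.12 for fru-miR-30c, -0.063 for hsa-miR-30a-3p and -0.0090 for tgu-miR-30b-3p. Without both libraries they were -0.46 for fru-miR-30c, -0.19 for hsa-miR-30a-3p, -0.31 for tgu-miR-30b-3p and 0.03 for pma-miR-30d, while chi-miR-30e-3p kept its sign there with -0.50. Without both, the arm ratio differences of miR-30a and miR-30e were -0.03 and -0.48. The cause was not tested.

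Leaving out single libraries moved the log2 fold change between -2.03 and 0.95 for hsa-miR-30c-5p, oar-miR-30c and dre-miR-30c-5p, between -0.77 and 0.89 for hsa-miR-30d-5p and oar-miR-30d, and between -0.72 and 0.17 for hsa-miR-30a-5p and cpi-miR-30a-5p. The ranges were -1.31 to 0.94 for fru-miR-30c, -1.33 to 1.16 for gga-miR-30c-1-3p, -1.28 to 0.67 for gga-miR-30c-2-3p, -1.20 to 0.74 for hsa-miR-30c-2-3p, -0.53 to 0.56 for hsa-miR-30a-3p, -0.50 to 0.92 for pma-miR-30b, -0.46 to 0.33 for pma-miR-30d, -0.31 to 0.57 for tgu-miR-30b-3p and -0.37 to 0.0071 for chi-miR-30e-3p. The arm ratio differences ran from -0.72 to 1.24 for miR-30a, from -0.61 to 1.78 for miR-30d and from -0.19 to 0.62 for miR-30e. The log2 ratio of the summed family level was -0.17 with 1 name per letter, a setting chosen after seeing the data. Names with under 100 reads in a library, CR replicate 2 above all, are limited by counting error.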

Other observations

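Some miR-30 names below the filter had most of their reads in TB replicate 1 and CR replicate 2. The name bta-miR-30f, whose reads are those of pma-miR-30f, had 2.98, 0 and 0.111 RPM across the TB libraries and 0.263, 3.33 and 0 RPM across the CR libraries, from 26 reads, unlike mmu-miR-30f. For gga-miR-30b-3p the values were 1.58, 0.107 and 0 RPM and 0, 3.33 and 0 RPM, from 15 reads. The names pal-miR-30c-3p and ssa-miR-30e-3p held 33 and 36 reads, with 2.98 and 3.33 RPM in TB replicate 1 and 4.66 and 5.33 RPM in CR replicate 2. Not all names below the filter did so. Of the 58 reads of ola-miR-30e, 8 came from TB replicate 1 and 5 from CR replicate 2. For oan-miR-30d-3p, with 26 reads, both libraries lay below the others, at 0.350 and 0 RPM beside 0.400 to 0.790 RPM.

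Outside profiles nearest to the other abundant 5p strands were ranked after the data were seen. Nearest to hsa-miR-30a-5p were oan-miR-20a-5p and hsa-miR-20a-5p (0.23 each) and mmu-miR-194-5p (0.26), an miRNA of the intestinal epithelium. Next came ola-miR-143 and efu-miR-143 (0.38 each), names of a smooth muscle miRNA. Nearest to mmu-miR-30e-5p were ola-miR-200a and ccr-miR-200a (0.25 each) and mmu-miR-200a-3p (0.26), names of another epithelial miRNA. After these came gga-miR-146b-5p (0.29), which is on none of the marker lists, and gga-miR-200a-5p (0.31). These are descriptions over 6 libraries, and what they share with the family was not tested.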
